A study of Mus musculus with 4 samples.

Results

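The 421 cells described here were the mast cells of subcutaneous Pan02 tumours, 0.664% of the 63443 cells kept from 4 single-cell RNA libraries. Pan02 is a mouse pancreatic cancer line, and the hosts were female C57BL/6 mice of 6 to 7 weeks. The cells were chosen by their own RNA. A cell was selected on at least 200 genes, at most 20% mitochondrial UMIs (unique molecular identifiers, 1 per captured RNA molecule), at least 5 UMIs summed over Cpa3, Tpsb2, Mcpt4 and Cma1, fewer than 2 UMIs of Mcpt8, and no UMI of the T cell genes Cd3d, Cd3e and Cd3g. Each group was 1 library into which 3 tumours were combined. The control mice received IgG, others received anti-PD-1, which blocks a checkpoint receptor of T cells, or anti-LIF, aimed at a cytokine of the IL-6 family, and the combo group received both. All mice carried the same line, and treatment was assigned once tumours reached about 50 mm3. The labels give 200 µg of anti-PD-1 antibody with 25 mg/kg of IgG or anti-LIF, injected 3 times a week, without a schedule for each group. A subcutaneous graft of 1 line in young females, with tumours combined before capture, is what these libraries represent. With 1 library a group there was no test between groups, and every interval in brackets is a 95% interval for counting error only, not for differences between mice.

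Mast cells are tissue-resident granulocytes that grow under stem cell factor, the ligand of the receptor KIT, and that release stored granules when IgE bound to the receptor FceRI is cross-linked. Their granules hold histamine, serglycin proteoglycan, carboxypeptidase A3 (Cpa3), tryptases (Tpsb2, Tpsab1) and chymases. In the mouse, the chymases Mcpt4 and Cma1 (also called Mcpt5) mark connective tissue mast cells, while Mcpt1 and Mcpt2 mark mucosal mast cells. Basophils, a related circulating cell, share FceRI with mast cells but express Mcpt8, which the selection limited.

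The selected cells carried the mast cell markers that the selection did not use. Kit was detected in 72.6% of the control cells, 89.7% with anti-PD-1, 90.9% with anti-LIF and 88.7% with combo. Of the 11 fixed mast cell markers, the 7 outside the selection rule summed to 4794 CPM in control and, in the order just given, to 6401, 9964 and 7938 CPM in the treated libraries (CPM, counts per 1000000 UMIs summed over the mast cells of a library). In all other kept cells the same 7 summed to between 45.7 and 75.9 CPM. Ranked by their ratio to other kept cells, and with no test because the same cells were selected on their RNA, the leading genes included the tryptases Tpsab1 and Tpsg1 and the peptide receptors Mrgprx2, Mrgprb1 and Mrgprb2. Slc18a2, which loads amines into granules, the serotonin transporter Slc6a4, and Ms4a2 and Fcer1a, 2 chains of FceRI, were also among the first 25. Tpsab1 averaged 3969 CPM in mast cells and 2.07 CPM elsewhere. The defining eosinophil genes Prg2 and Epx were at 0 UMIs in the mast cells of every library. Gm10354, Gm9758 and Gm21190, also among the leading genes, shared 27.6%, 51.3% and 97.7% of the 60-base windows of their last 400 transcript bases with other genes, so their levels are uncertain.

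The threshold of 5 UMIs fell in a sparse range. The selection genes summed to a median of 78.5 UMIs per cell in control, 83.5 with anti-PD-1, 196.5 with anti-LIF and 164 with combo. Cells with 3 or 4 UMIs, just outside the rule, numbered 8, 11, 7 and 15 in the same order. Members with 5 to 9 UMIs numbered 5, 3, 1 and 9. Some members also carried RNA of other lineages. Of the 421 cells, 39 (9.26%) passed the gate of another lineage: 2 in control, 8 with anti-PD-1, 2 with anti-LIF and 27 with combo. No member could pass the T cell or basophil gate, because the rule had already left out such cells by their Cd3 and Mcpt8 RNA. The summed level of the 7 macrophage markers in the members was 65.1 CPM in control and 1656, 2151 and 3654 CPM in the treated libraries. The 6 fibroblast markers summed to 899, 1528, 604 and 7069 CPM, and the 5 neutrophil markers to 111, 4520, 45.7 and 14.7 CPM. Between 2 and 11 member barcodes of a library also occurred in another library, and none of these was a member there. No doublet caller was run.

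Libraries held between 57720774 and 111164731 UMIs in 15046 to 20393 barcodes. The median mast cell had 1717 UMIs in control, 1657.5 with anti-PD-1, 1963.5 with anti-LIF and 2473 with combo. Summed over the mast cells, this gave 153529, 297778, 197110 and 682579 UMIs, so that levels were least precise in control.

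The promoters of 4 granule protease genes are shown because their RNA separated the libraries, Cpa3, Cma1 and Mcpt4 in the direction opposite to Mcpt1 under anti-LIF. Cpa3, Cma1 and Mcpt4 are selection genes, and the 19 Mcpt1 UMIs of anti-LIF all came from 1 cell. Each sequence is the 250 bases before the gene's start, 5′ to 3′ on the gene's strand, from RefSeq on build GRCm38.p6. Capitals mark the GATA motif, searched on both strands with overlaps included. Its spelling is AGATAA in the first form and TGATAA where it starts with the other permitted letter. Either may end in G, which gives AGATAG for the first form and also allows TGATAG for the other.
Cpa3: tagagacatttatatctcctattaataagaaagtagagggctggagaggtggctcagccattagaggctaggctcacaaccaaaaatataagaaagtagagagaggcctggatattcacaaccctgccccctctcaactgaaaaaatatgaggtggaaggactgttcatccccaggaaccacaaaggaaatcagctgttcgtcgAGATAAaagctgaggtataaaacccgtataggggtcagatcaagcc
Cma1: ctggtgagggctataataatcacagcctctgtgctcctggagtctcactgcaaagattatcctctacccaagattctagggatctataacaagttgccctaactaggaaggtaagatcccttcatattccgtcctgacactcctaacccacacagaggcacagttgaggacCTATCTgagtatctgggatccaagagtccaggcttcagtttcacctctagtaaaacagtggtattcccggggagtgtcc
Mcpt4: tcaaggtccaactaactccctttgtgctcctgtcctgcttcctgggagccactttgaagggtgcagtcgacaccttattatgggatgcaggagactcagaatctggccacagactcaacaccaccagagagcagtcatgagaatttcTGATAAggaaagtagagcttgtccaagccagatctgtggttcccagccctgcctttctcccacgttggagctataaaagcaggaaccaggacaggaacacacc
Mcpt1: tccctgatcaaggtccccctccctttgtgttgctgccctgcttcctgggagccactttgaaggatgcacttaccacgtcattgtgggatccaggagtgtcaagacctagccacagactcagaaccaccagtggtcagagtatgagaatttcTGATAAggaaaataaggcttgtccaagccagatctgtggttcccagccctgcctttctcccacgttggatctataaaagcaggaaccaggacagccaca
The windows lie at chr3:20242182-20242431 on the minus strand (Cpa3), at chr14:55944676-55944925 on the minus strand (Cma1), at chr14:56062311-56062560 on the minus strand (Mcpt4) and at chr14:56017714-56017963 on the plus strand (Mcpt1). Each window held 1 match, and GATA2 is a transcription factor that mast cells require. Of 12 mast cell and chemokine genes looked up, 9 were in the table, and 7 of these 9 held a match, against 26.5% of 32851 windows of the same length. Kit and Ccl3 held none in this window. The Mcpt4 and Mcpt1 windows, aligned without gaps at the best shift, were equal at 136 of 246 bases (55.3%), and their matches started 103 and 99 bases before the gene. Mcpt4 and Cma1 were equal at 30.7% of the bases compared. A match is a description of letters only. The genes themselves, by the GRCm38 annotation, are Cpa3 at chr3:20215620-20242181, and on chromosome 14 Cma1 at chr14:55941451-55944675, Mcpt1 at chr14:56017971-56020384, Mcpt2 at chr14:56042041-56044642, Mcpt4 at chr14:56059629-56062313 and Mcpt8 at chr14:56082166-56085273, which stand in 1 cluster. Ccl3 and Ccl4, described further on, are neighbours at chr11:83647844-83649355 and chr11:83662584-83664683.

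Mast cells made up a larger share of the anti-PD-1 and combo libraries than of control. The share of kept cells was 0.333% [0.255, 0.426] in control (62 of 18640), 0.806% [0.666, 0.966] with anti-PD-1 (116 of 14392), 0.471% [0.364, 0.599] with anti-LIF (66 of 14014) and 1.08% [0.927, 1.25] with combo (177 of 16397). Combo was thus highest and control lowest, and the intervals of control and anti-LIF overlapped. Against control the share was 2.42-fold [1.77, 3.35] with anti-PD-1, 1.42-fold [0.986, 2.04] with anti-LIF and 3.25-fold [2.42, 4.41] with combo. Combo was 1.34-fold [1.05, 1.71] above anti-PD-1 and 2.29-fold [1.72, 3.09] above anti-LIF. All 3 ratios against control use the same control library.

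The condition on Cd3 RNA bore unequally on the libraries. It left out 31 control cells that met every other condition, and 7, 3 and 8 such cells of the treated libraries in the order above. In control, 27 of the 31 had at least 2 Cd3 UMIs and 29 had Trac or Trbc2 RNA, which encode T cell receptor chains. Their median was 3961 UMIs per cell. Cd3 UMIs were found in 43.2% of all kept control cells and in 14.9%, 10.1% and 11.2% of the kept cells of the other libraries. Without the condition the mast cell share was 0.499% in control, 0.855% with anti-PD-1, 0.492% with anti-LIF and 1.13% with combo. The anti-PD-1 library's log2 ratio to control then moved from 1.28 to 0.78 [0.38, 1.18]. That of anti-LIF moved from 0.50 to -0.02 [-0.49, 0.45], and that of combo from 1.70 to 1.18 [0.81, 1.55]. The order of anti-PD-1 and combo above control was kept, while anti-LIF had no higher share than control. Shares of a library sum to 100%, and the makeup of the other cells differed, so the share was also taken over a smaller denominator, cells with RNA of the leukocyte gene Ptprc together with every mast cell. It was 0.866% in control, 2.22% with anti-PD-1, 1.53% with anti-LIF and 3.38% with combo. Ptprc RNA itself was found in 21 of the 62 control mast cells and in 49 of 116, 25 of 66 and 83 of 177 of the others.

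**Figure D1:**
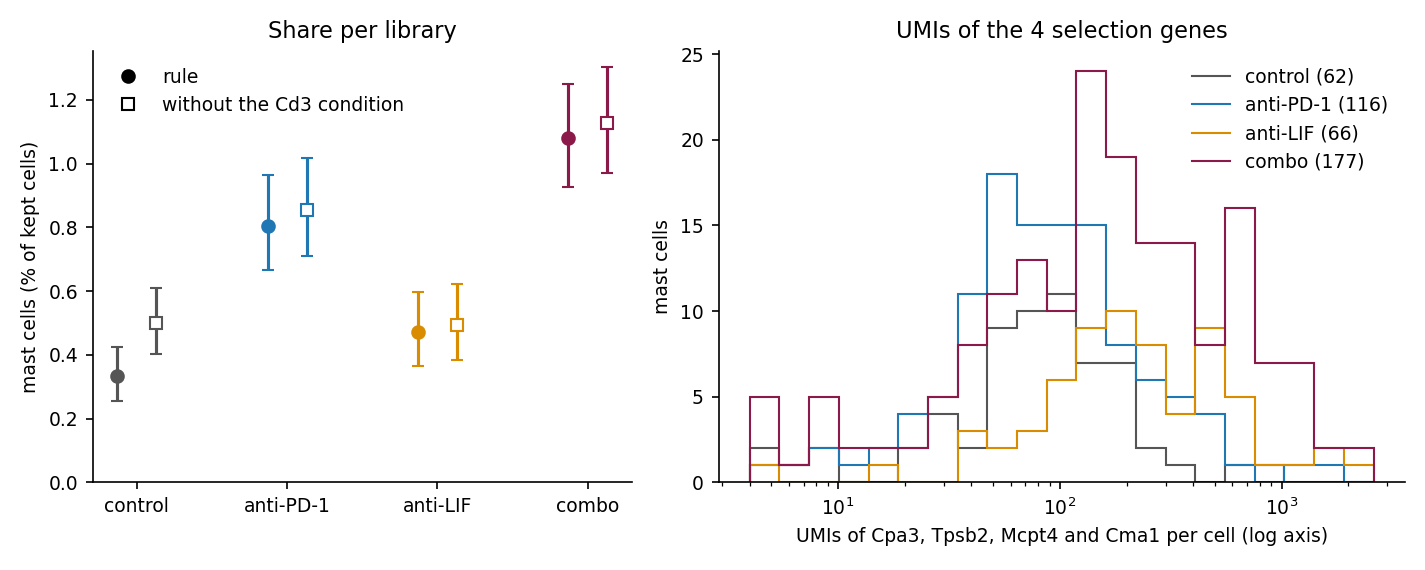
Left, mast cells as a percent of kept cells in each library (y axis), by the selection rule (filled circles) and without its Cd3 condition (open squares), with exact 95% binomial intervals for counting error. Right, number of mast cells (y axis) by the summed UMIs of the 4 selection genes (x axis, log scale), 1 line per library: the anti-LIF and combo cells lie to the right of the control and anti-PD-1 cells, with medians of 196.5 and 164 against 78.5 and 83.5 UMIs.

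Granule proteases differed in composition between the libraries. The chymases of connective tissue mast cells were highest with anti-LIF. Mcpt4 was at 8780 CPM in control, 9554 with anti-PD-1, 28441 with anti-LIF and 19746 with combo. Cma1 was at 11086, 11633, 30212 and 20931 CPM in the same order. Control and anti-PD-1 were thus close for both genes, and the 2 libraries with anti-LIF lay well above them. Cpa3, which trims peptides after chymase cleavage, was at 10122, 9809, 20329 and 13228 CPM. The tryptase Tpsb2 was at 17580, 23487, 36513 and 25666 CPM. These 4 genes chose the cells, so their levels are descriptions. Of the 341 windows of 60 bases at the transcript end, 41 of Mcpt4 also occur in Cma2 and 36 of Cma1 in Gm48934, so a small part of these counts could be split with those genes. Cpa3, Tpsb2, Tpsab1, Mcpt1 and Mcpt2 shared none.

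Mcpt2, a mucosal mast cell protease that the rule did not use, was lowest where those 2 chymases were high. It was at 21605 CPM in control, 16076 with anti-PD-1, 7103 with anti-LIF and 4851 with combo, so that the control cells held the most and the combo cells the least. Mcpt2 RNA was found in 83.9% [72.3, 92.0] of the control mast cells (52 of 62), 75.9% [67.0, 83.3] with anti-PD-1, 40.9% [29.0, 53.7] with anti-LIF and 41.2% [33.9, 48.9] with combo. With each cell thinned to 500 UMIs the shares were 74.2%, 62.9%, 31.8% and 32.2%. In cells gated as macrophages, which should lack the gene, a UMI was found in at most 0.547% of cells in any library. Log2 ratios to control were -0.43 [-0.49, -0.36], -1.60 [-1.70, -1.51] and -2.16 [-2.23, -2.09] in the order of the treated libraries. Combo was at -1.73 [-1.79, -1.66] against anti-PD-1 and at -0.55 [-0.64, -0.46] against anti-LIF. In anti-LIF 1 cell held 37.9% of the Mcpt2 UMIs, and without the highest cell of each library combo was at -0.14 against anti-LIF. As the mean over cells the same ratio was 0.02, so the order of these 2 libraries was not settled. Without the Cd3 condition the ratios against control were 0.06, -1.13 and -1.64. The small difference between anti-PD-1 and control thus changed sign, while both libraries with anti-LIF stayed more than 2-fold below control.

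Mcpt2 varied widely from cell to cell. In control the first and last quartile of cells lay at 6211 and 14522 CPM of Cpa3, but at 1116 and 35761 CPM of Mcpt2, and in anti-LIF and combo the median cell had 0. Cells with at least 10 Mcpt2 UMIs made up 66.1% [53.0, 77.7] of the mast cells in control, 47.4% [38.1, 56.9] with anti-PD-1, 24.2% [14.5, 36.4] with anti-LIF and 25.4% [19.2, 32.5] with combo. Among all cells with an Mcpt2 UMI the median level was 19129, 14113, 8085 and 7299 CPM. The share of cells with any Mcpt2 and their median level were thus lower in the libraries with anti-LIF. Among cells with at least 10 Mcpt2 UMIs the median was 28295, 27437, 28937 and 17455 CPM, so there only combo was lower. With anti-LIF, the 16 cells with at least 10 Mcpt2 UMIs had less Mcpt4 than the 39 cells without Mcpt2, at 12077 against 35738 CPM. The same split gave 7255 against 8469 CPM of Mcpt4 in control, 8812 against 11930 with anti-PD-1 and 16169 against 22599 with combo. Control had only 10 cells without Mcpt2. Cma1 was also lower in the Mcpt2 cells of control, anti-LIF and combo, but higher with anti-PD-1, at 13561 against 11470 CPM. Over all cells, the rank correlation of Mcpt2 with Mcpt4 and Cma1 summed was 0.30 in control and 0.11 with anti-PD-1. It was -0.46 with anti-LIF and -0.15 with combo. For Fcer1a the split gave 723 against 1024 CPM in control, 1349 against 3938 with anti-LIF and 1347 against 2093 with combo. With anti-PD-1 the order was the other way, at 1336 against 910 CPM. Mcpt1, the other mucosal protease, had 31, 80, 19 and 15 UMIs, or 202 CPM in control, 269 with anti-PD-1 and 96.4 with anti-LIF. Its 19 anti-LIF UMIs all came from 1 cell. The second tryptase Tpsab1 stayed within a narrow range, at 3771, 4295, 4404 and 3406 CPM.

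**Figure D2:**
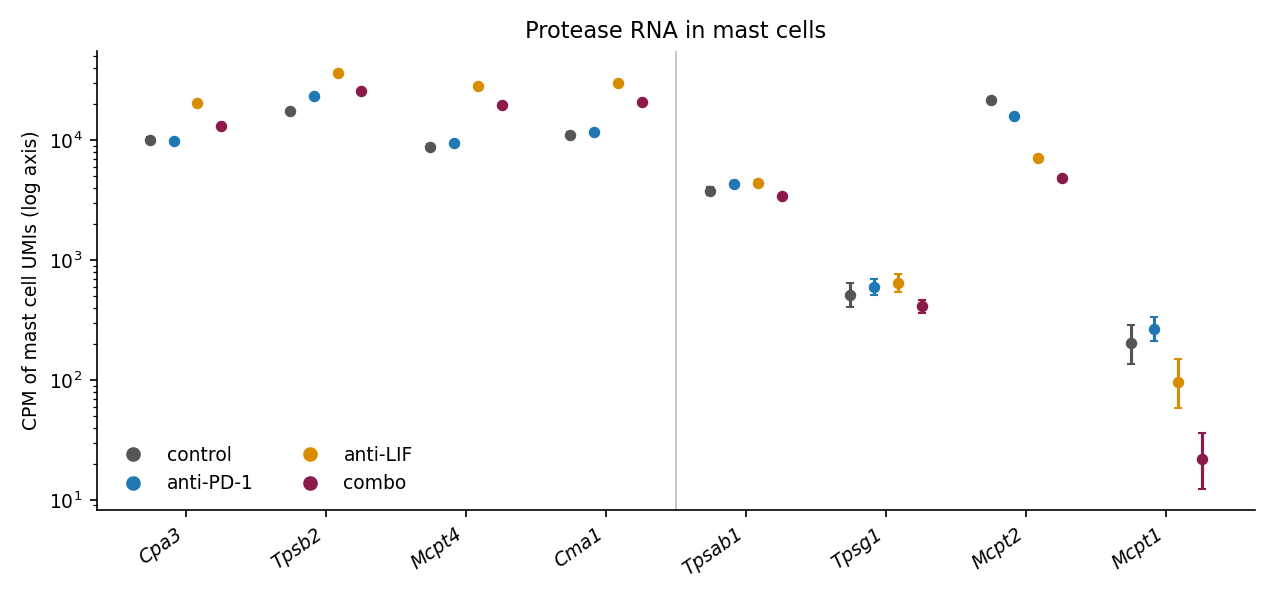
Protease RNA summed over the mast cells of each library (y axis, CPM on a log scale) for the 4 selection genes, left of the grey line, and 4 other proteases. Bars are exact 95% Poisson intervals for counting error; Mcpt4 and Cma1 are highest in anti-LIF and combo, while Mcpt2 declines from 21605 CPM in control to 4851 CPM in combo.

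**Figure D3:**
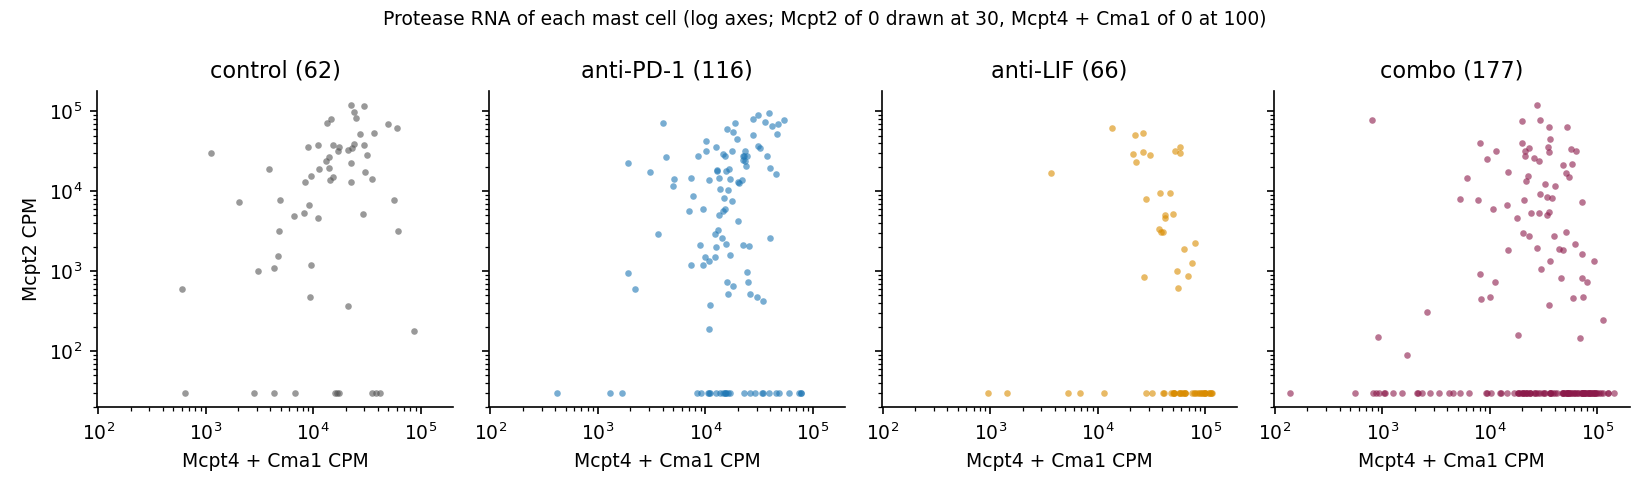
Each point is 1 mast cell, with the summed CPM of Mcpt4 and Cma1 on the x axis and the CPM of Mcpt2 on the y axis (log scales), 1 panel per library with its number of cells. Cells with no Mcpt2 UMI are drawn at 30: they number 10 of 62 in control, 28 of 116 with anti-PD-1, 39 of 66 with anti-LIF and 104 of 177 with combo.

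Across the 14 granule proteases listed, differences were read against all measured genes, those with at least 20 UMIs over both libraries. A ratio of at least 2-fold was used as a description and not as a test. With anti-PD-1, 10 of the 14 were measured. None was at least 2-fold higher, against 10.8% of the 3193 genes measured, and Prss34 alone was at least 2-fold lower, against 3.79%. With anti-LIF, 5 of 11 were at least 2-fold higher (Cpa3, Tpsb2, Mcpt4, Cma1 and Ctsg), against 12.7% of 2577 genes, and 3 were at least 2-fold lower (Mcpt1, Mcpt2 and Gzmb), against 8.77%. With combo, Mcpt4 and Ctsg were at least 2-fold higher, against 17.1% of 5300 genes, and Mcpt1, Mcpt2 and Gzmb were at least 2-fold lower, against 4.81%. Of the 5 higher proteases under anti-LIF, 4 belong to the selection rule and nothing is read from their count. Combo against anti-PD-1 gave 3 of 11 higher (Mcpt4, Prss34 and Ctsg), against 7.33% of 5877 genes, and Mcpt1 and Mcpt2 lower, against 4.17%. Mcpt4 belongs to the selection rule, so nothing is read from the counts of higher proteases in combo either. Ctsg had 11 UMIs in control, all from 1 cell, and 4 with anti-PD-1. Combo against anti-LIF gave none higher, against 10.2% of 5480 genes, and only Mcpt1 lower, against 3.23%. That last difference turned to 1.67 on the log2 scale without the 1 cell that held the anti-LIF Mcpt1 UMIs. The basophil and mast cell protease Prss34 was at 143, 20.1, 259 and 234 CPM. It came from 6 UMIs in anti-PD-1, and in combo 37.5% of its UMIs came from 1 cell.

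Genes of the amine and proteoglycan stores were less far apart than the proteases, except Ctsd. Hdc, which makes histamine, was at 2019 CPM in control, 1834 with anti-PD-1, 2790 with anti-LIF and 2631 with combo. Serglycin (Srgn), the core to which granule proteases bind, was at 7217, 6112, 6205 and 5434 CPM and was highest in control. Tph1, which makes serotonin, was at 495, 769, 751 and 828 CPM. The amine transporter Slc18a2 was at 300 CPM in control and at 521, 654 and 428 CPM in the treated libraries. The lysosomal protease Ctsd was at 97.7, 363, 761 and 311 CPM. In all other kept cells Ctsd was at 32.3, 173, 274 and 128 CPM, in the same order of libraries. Of the genes in this list, Ctsd alone was at least 2-fold higher with anti-PD-1, and Hs6st2, Lamp1 and Ctsd were with combo.

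Several surface receptors of mast cells were lowest in the control cells. Kit, the receptor for stem cell factor, was at 990 CPM in control, 1954 with anti-PD-1, 2116 with anti-LIF and 1932 with combo. The treated libraries were close to each other, and all lay about 2-fold above control: log2 ratios were 0.98 [0.72, 1.25], 1.09 [0.82, 1.37] and 0.96 [0.72, 1.22]. Fcer1a, the IgE-binding chain of FceRI, was at 899, 1068, 3019 and 1730 CPM, so that anti-LIF stood above the rest. Log2 ratios to control were 0.25 [-0.04, 0.55], 1.74 [1.48, 2.03] and 0.94 [0.69, 1.21]. The other FceRI chains were at 404, 561, 609 and 504 CPM (Ms4a2) and at 971, 1108, 1847 and 1509 CPM (Fcer1g). Il1rl1, the receptor for IL-33, was at 1179, 2169, 2587 and 2190 CPM and followed the pattern of Kit.

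The receptor Mrgprb2, through which basic peptides and drugs degranulate connective tissue mast cells without IgE, was at 287, 551, 827 and 586 CPM. Its relative Mrgprb1 was at 925, 1562, 2806 and 1956 CPM. Both were lowest in control and highest with anti-LIF. Lilrb4a, an inhibitory receptor, ran the other way at 2084, 1602, 1360 and 1021 CPM. Fcgr2b, the inhibitory IgG receptor, was at 58.6, 252, 198 and 277 CPM. In other kept cells Fcgr2b was at 29.0, 326, 414 and 352 CPM, and the macrophage markers in the members moved in the same direction. Its dependence on RNA from those cells was not tested. Of 36 receptors, 3 of 23 measured were at least 2-fold higher with anti-PD-1, 8 of 22 with anti-LIF and 6 of 29 with combo, where 10.8%, 12.7% and 17.1% of all measured genes were. The shares of the list were thus near that background for anti-PD-1 and combo. At least 2-fold lower were 0, 2 (C3ar1 and Cd9) and 1 (Lilrb4a), against 3.79%, 8.77% and 4.81% of all genes. The median log2 ratio of the list was 0.51, 0.58 and 0.45, against 0.08, 0.09 and 0.17 over all measured genes. In all other kept cells the same genes had higher medians, 0.79, 1.501 and 1.59.

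Kit and Fcer1a were also lower in the control cells without the Cd3 condition. The log2 ratios to control were then larger, at 1.36, 1.52 and 1.33 for Kit and at 0.81, 2.40 and 1.52 for Fcer1a. That setting adds 31 control cells, 29 of them with Trac or Trbc2 RNA, and their T cell RNA counts in the CPM total. The larger ratios are therefore no separate support for the lower levels in control. Leaving out the members in other gates gave 0.99, 0.87 and 1.11 for Kit.

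Several signalling genes downstream of FceRI and KIT were also lowest in control. Inpp5d, the phosphatase SHIP1 that restrains degranulation, was at 169, 403, 457 and 394 CPM. The kinase Lyn was at 97.7, 242, 137 and 188 CPM, and Syk at 84.7, 80.6, 71.0 and 77.6 CPM. Every interval of a Syk ratio between libraries included 0. Of 21 genes, 3 of 13 measured were at least 2-fold higher with anti-PD-1, 5 of 12 with anti-LIF and 4 of 17 with combo, against 10.8%, 12.7% and 17.1% of all genes, and none was 2-fold lower. The list's median log2 ratios were 0.47, 0.68 and 0.58 in mast cells and 0.95, 1.12 and 0.72 in all other kept cells. Macrophage markers in the mast cells were also higher in the treated libraries, and their part in these values was not tested. Inpp5d and Ptpn6 were among the signalling genes at least 2-fold higher in each comparison with control, and these comparisons all share that library. Rab27b, a regulator of granule release, was at 287, 426, 583 and 481 CPM. Of the 14 exocytosis genes only 5, 5 and 9 were measured, and 1, 4 and 2 of them were at least 2-fold higher, against the same 10.8%, 12.7% and 17.1%.

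Gata2, which the mast cell lineage requires, showed one of the wider differences among the transcription factors. It was at 130 CPM [79.6, 201] in control, from 20 UMIs, 306 [246, 375] with anti-PD-1, 558 [459, 673] with anti-LIF and 479 [429, 534] with combo. Log2 ratios to control were 1.20, 2.07 and 1.85, and no interval of a treated library overlapped that of control. Combo lay 0.64 [0.31, 1.00] above anti-PD-1. Mitf, another mast cell regulator, was at 45.6, 94.0, 137 and 107 CPM, from 7 UMIs in control. Gata1 had 1 UMI in control and 10, 13 and 37 in the treated libraries. Bhlhe40 was lowest with anti-LIF, at 1036, 1128, 533 and 791 CPM. Of 17 factors, 1 of 9 measured was at least 2-fold higher with anti-PD-1, 2 of 8 with anti-LIF and 5 of 13 with combo. Over all genes these shares were 10.8%, 12.7% and 17.1%, so the anti-PD-1 count was at the background.

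Enzymes of lipid mediators had no common direction. Hpgds, which makes prostaglandin D2, was at 52.1, 158, 218 and 233 CPM, lowest in control with 8 UMIs. In other kept cells Hpgds was at 2.10, 18.6, 11.5 and 13.3 CPM, also lowest in control. Alox5, which starts leukotriene synthesis, was highest with anti-PD-1, at 502, 950, 578 and 488 CPM. Its partner Alox5ap was at 567, 789, 573 and 567 CPM. Ptgs2 was at 866, 228, 406 and 151 CPM, but 80.5% of its control UMIs came from 1 cell.

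**Figure D4:**
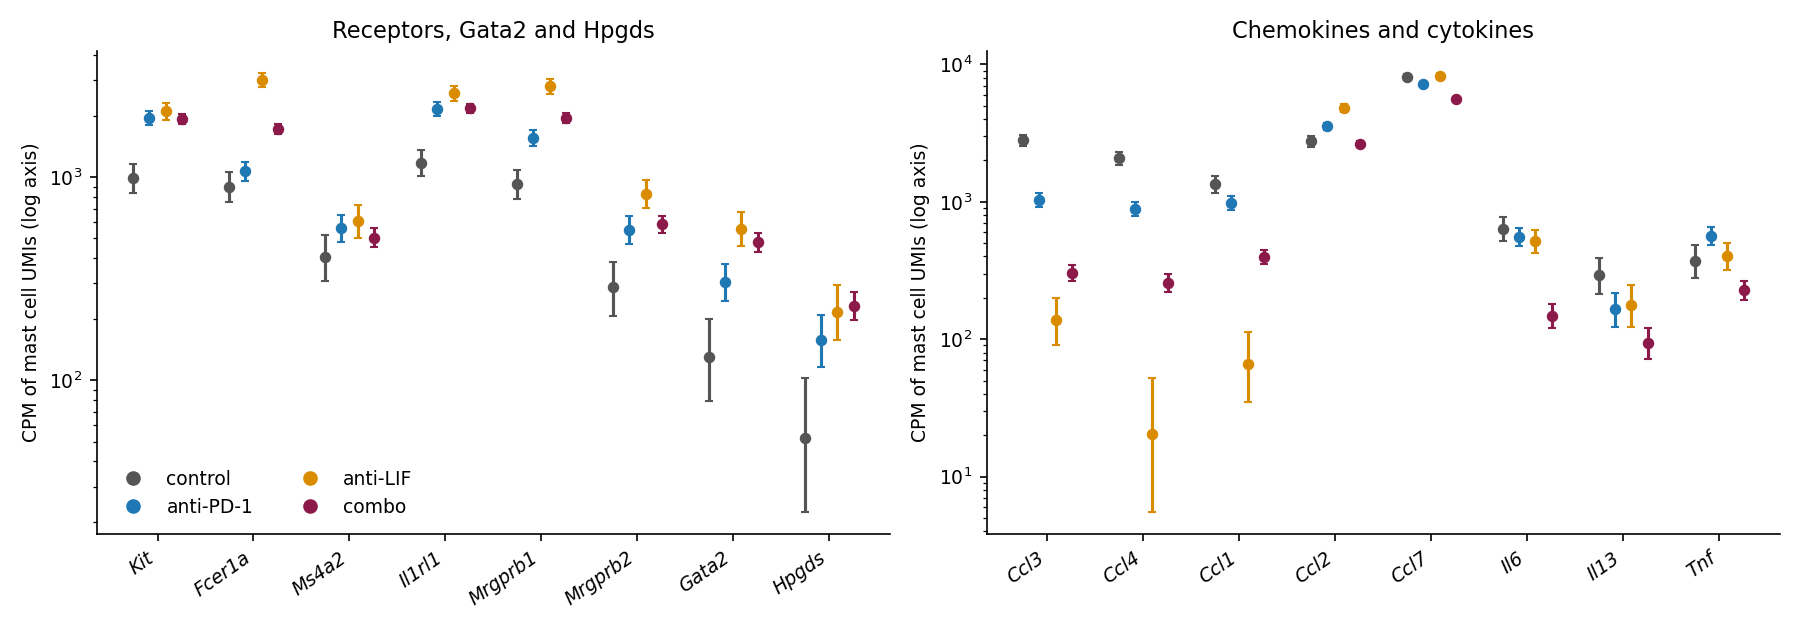
Levels summed over the mast cells of each library (y axes, CPM on a log scale) of 6 receptor genes with Gata2 and Hpgds (left) and of 8 chemokine and cytokine genes (right), with exact 95% Poisson intervals for counting error. Control is lowest for each gene on the left, and Ccl3, Ccl4 and Ccl1 fall furthest below control in anti-LIF, while Ccl2 and Ccl7 stay within 2-fold.

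Among the secreted factors, 3 chemokines were highest in the control cells. Ccl3, which attracts monocytes and T cells, was at 2794 CPM in control, 1034 with anti-PD-1, 137 with anti-LIF and 303 with combo. Ccl4, its close relative, was at 2078, 890, 20.3 and 256 CPM. Ccl1, which attracts cells with the receptor CCR8, was at 1342, 981, 66.0 and 396 CPM. All 3 were highest in control and lowest with anti-LIF, with combo between anti-LIF and anti-PD-1. For Ccl1 the order of control and anti-PD-1 was not settled. Its log2 ratio was -0.45 and ran from -0.52 to 0.01 over 7 alternatives. In control 1 cell held 33.0% of the Ccl1 UMIs, and Ccl1 was found in 29.0% of control cells and 25.0% with anti-PD-1. Log2 ratios to control of Ccl3 were -1.43 [-1.65, -1.22], -4.33 [-4.97, -3.79] and -3.20 [-3.45, -2.96], and for Ccl4 -1.22 [-1.46, -0.98], -6.51 [-8.56, -5.31] and -3.02 [-3.29, -2.75]. With anti-LIF, the Ccl4 value rests on 4 UMIs. Combo lay above anti-LIF by 1.12 [0.56, 1.78] for Ccl3 and 3.49 [2.28, 5.55] for Ccl4. In all other kept cells Ccl3 was at 117, 108, 125 and 99.3 CPM and Ccl4 at 58.6, 87.2, 72.0 and 70.4 CPM, close to level across libraries.

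The chemokine difference was one of how many cells held the RNA as well as of how much. Ccl3 was found in 51.6% [38.6, 64.5] of control mast cells, 25.9% [18.2, 34.8] with anti-PD-1, 15.2% [7.51, 26.1] with anti-LIF and 18.1% [12.7, 24.6] with combo. Cells with at least 10 UMIs of Ccl3 and Ccl4 together numbered 18 of 62 (29.0%) in control, 15 of 116 (12.9%) with anti-PD-1, 0 of 66 with anti-LIF and 10 of 177 (5.65%) with combo. The 0 of 66 allows a share of up to 5.44% by the exact binomial interval. Of the 18 such control cells, 16 had at least 10 UMIs of Mcpt2, where 66.1% of all control mast cells did, and none lacked it. With anti-PD-1, 8 of 15 had that much Mcpt2, near the 47.4% of all its mast cells, and 2 had none. In combo, 5 of 10 had that much Mcpt2, against 25.4% of all its mast cells, and 4 had none. A relation between the genes was not tested. The ratios of Ccl3 and Ccl4 to control kept their direction under the 7 alternatives tried, between -1.07 and -1.55 in the anti-PD-1 library, between -4.26 and -7.88 in anti-LIF and between -2.79 and -3.51 in combo.

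Other chemokines of the mast cells were abundant in every library. Ccl7, a monocyte attractant, was at 8103, 7150, 8290 and 5582 CPM and was found in 86.2% to 93.5% of mast cells. Ccl2 was at 2749, 3543, 4835 and 2655 CPM, with a UMI in 81.9% to 90.9% of cells. Other kept cells held 95.7 to 547 CPM of Ccl7 and 141 to 860 CPM of Ccl2. In contrast with Ccl3 and Ccl4, neither differed 2-fold from control in any library.

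Cytokine RNA was sparser. Il6 was at 638, 557, 517 and 148 CPM, so that combo alone stood apart, at -2.11 [-2.52, -1.69] on the log2 scale from control and -1.81 [-2.22, -1.39] from anti-LIF. The share of cells with Il6 RNA was 53.2% in control and 37.1%, 24.2% and 20.9% in the others. Il13, a type 2 cytokine, was at 293, 165, 178 and 93.8 CPM, and a UMI was found in 35.5% of control cells and in 15.5%, 10.6% and 12.4% of the others. Tnf was at 371, 568, 401 and 227 CPM, and the share of cells with it was between 29.3% and 36.4%. Il4 had 5, 6, 14 and 47 UMIs. Csf2 had 27, 5, 1 and 26 UMIs, of which 1 control cell gave 21. Il3 had 15 UMIs in control, 1 with anti-PD-1 and none in the others. Of 28 cytokines and growth factors, 6 of 17 measured were at least 2-fold lower with anti-PD-1, 7 of 17 with anti-LIF and 8 of 22 with combo, against 3.79%, 8.77% and 4.81% of all genes. At least 2-fold higher were 0, 1 (Il1b) and 4 (Il10, Osm, Areg and Tgfb1), against 10.8%, 12.7% and 17.1%, these 4 with at most 3 UMIs each in control. One control cell gave 82.7% of the Lif UMIs and 54.7% of the Spp1 UMIs of control, so the lower values of these 2 genes rest largely on it.

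Genes induced by cell activation had no common direction. Nr4a3, induced by FceRI signals, was at 1641, 1300, 452 and 604 CPM. Nfkbia, an inhibitor and target of NF-kB, was at 2032, 1612, 680 and 819 CPM, and 42.6% of its control UMIs came from 1 cell. Pim1 was at 1205, 1246, 533 and 728 CPM. These 3 were lower in the libraries with anti-LIF. The immediate early genes Fos (879, 1407, 2922 and 2343 CPM) and Egr1 (469, 615, 1380 and 1134 CPM) were higher there, and Fosb was highest with anti-PD-1 (1824, 5504, 4459 and 2891 CPM). In other kept cells Fos was at 2697 CPM in control and between 3623 and 4095 CPM in the treated libraries. These genes also respond to tissue dissociation, whose part was not tested. Of the 20 genes in the list, 3 of 20 measured were at least 2-fold higher with anti-PD-1, 5 of 18 with anti-LIF and 5 of 20 with combo, and 0, 3 and 3 were at least 2-fold lower. Over all genes, 10.8%, 12.7% and 17.1% were higher and 3.79%, 8.77% and 4.81% lower.

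RNA of the receptors PD-1 and LIFR was scarce in mast cells, while Lif itself, the cytokine that anti-LIF is aimed at, had 52, 19, 9 and 37 UMIs in 40 of the 421 cells. Lif was at 339, 63.8, 45.7 and 54.2 CPM, with most control UMIs from the 1 cell named above. In other kept cells it was at 168, 88.4, 43.9 and 45.0 CPM. Lifr, the LIF receptor, had 0, 0, 1 and 2 UMIs, and Pdcd1, which encodes PD-1, had 1 UMI in all, in anti-PD-1. In other kept cells Lifr was at 4.74 to 25.5 CPM. With 0 UMIs in control, up to 19.5 CPM of Lifr (3 counts) may have been missed there. The signalling chain Il6st had 8, 14, 3 and 31 UMIs. Stat3 was at 261, 198, 172 and 149 CPM, and Cd274, the gene of the ligand that PD-1 binds, at 111, 118, 81.2 and 68.9 CPM. Of 13 STAT3 targets, 11, 9 and 12 were measured, with median log2 ratios of 0.40, 0.04 and 0.26 to control. At least 2-fold higher were 1, 0 and 1, against 10.8%, 12.7% and 17.1% of all genes, and 1, 2 and 1 were lower, against 3.79%, 8.77% and 4.81%.

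Interferon and MHC class I genes were lower in the treated libraries, in mast cells as in other cells. H2-K1, an MHC class I heavy chain, was at 5862, 4258, 3592 and 2712 CPM. H2-D1 was at 5269, 4288, 4292 and 3414 CPM, and Gbp2, an interferon-induced GTPase, at 482, 225, 132 and 105 CPM. The median log2 ratio of the list to control was -0.48, -0.53 and -0.90, with 16 of 17, 16 of 17 and 17 of 18 measured genes below 0. In all other kept cells the medians were -0.57, -0.83 and -1.04. At least 2-fold lower were 3, 3 and 8 genes, against 3.79%, 8.77% and 4.81% of all genes, and none was 2-fold higher. MHC class II genes, typical of other cells, were at 371, 245, 142 and 630 CPM for Cd74, with a UMI in 13.6% to 30.6% of mast cells. The class II list, with 4, 4 and 6 of 7 genes measured, had median log2 ratios to control of -0.66, -1.18 and 0.46. In all other kept cells the medians of these genes were 0.76, 0.79 and 0.56, so mast cells did not follow them with the single antibodies.

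Proliferation and survival genes were few in UMIs. Mki67 had 4, 22, 32 and 51 UMIs and was found in 3.23%, 5.17%, 12.1% and 7.91% of mast cells. Top2a was found in 12.9%, 1.72%, 12.1% and 11.3% of cells, so the pair did not give 1 order of the libraries. Mcl1, a survival factor, was at 332, 524, 517 and 535 CPM and lowest in control. Bcl2 had 6 to 26 UMIs.

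**Figure D5:**
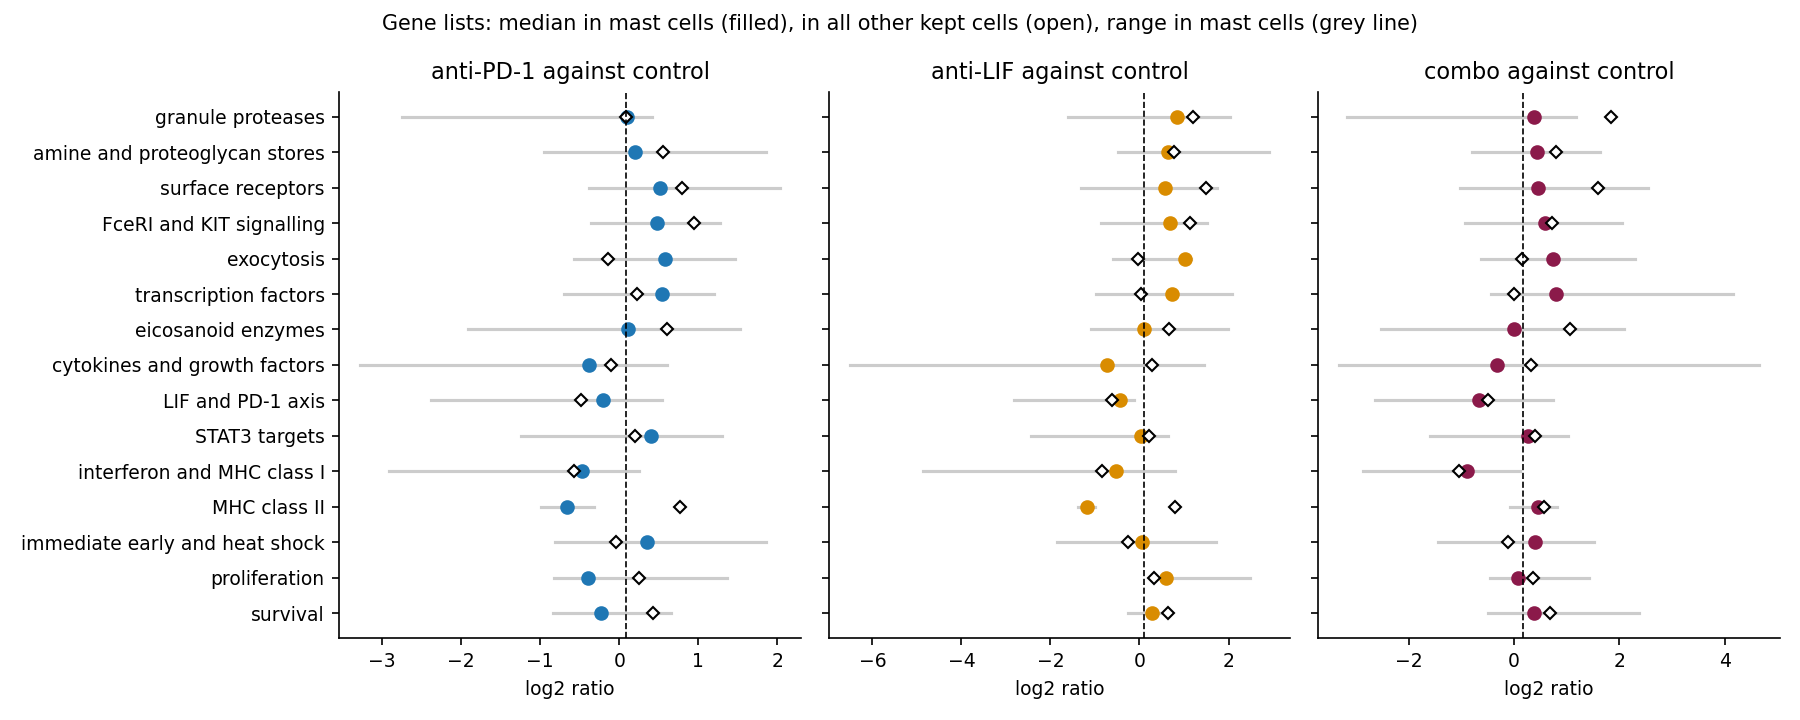
Median log2 ratio to control of each gene list (x axis) in mast cells (filled points) and in all other kept cells (open diamonds), 1 panel per treated library. Grey lines run from the lowest to the highest gene in mast cells and the dashed line is the median of all measured genes (0.08, 0.09 and 0.17); the interferon and MHC class I list lies left of it in each panel in both kinds of cell, and the receptors lie right of it.

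Genes at least 8-fold higher in mast cells than in other kept cells, by the mean over the 4 libraries, were taken as a group. This limit was chosen after the values were seen, to set apart RNA that other lineages could bring. A gene can pass it through the libraries where its level is high. The counts beside all genes are therefore descriptions, and nothing is read from them. With anti-PD-1, 13 of 130 measured genes of this kind were at least 2-fold higher than control, close to the 10.8% of all genes, and 7 lower (5.38%, against 3.79%). With anti-LIF, 45 of 134 were higher (33.6%, against 12.7%) and 13 lower (9.70%, against 8.77%). The 45 include the 4 selection genes. With combo, 37 of 174 were higher (21.3%, against 17.1%) and 20 lower (11.5%, against 4.81%). Their median log2 ratios were 0.30, 0.61 and 0.23. Higher in each treated library were Cd55, which protects cells from complement, at 19.5, 141, 249 and 240 CPM, and Padi2, at 39.1, 205, 152 and 182 CPM. Their control levels rest on 3 and 6 UMIs, and other kept control cells held 13.3 and 14.5 CPM. Slc6a4 was at 111, 208, 553 and 470 CPM, higher in the libraries with anti-LIF. Lower there was Nfkbid, at 1746, 1101, 462 and 637 CPM. Rgs1, a brake on chemokine receptor signals, was at 2716, 1075, 1502 and 964 CPM, highest in control. Adgre5, an adhesion receptor, was at 703 CPM in control and at 1619 and 1481 CPM with the single antibodies, but at 643 CPM with combo. Relative to anti-LIF, 7 of 182 such genes were at least 2-fold higher in combo (3.85%, against 10.2% of all genes) and 15 lower (8.24%, against 3.23%). Ccl3, Ccl4 and Csf2 are among the 7, but with anti-LIF their levels in mast cells, 137, 20.3 and 5.07 CPM, were near or below the 125, 72.0 and 3.65 CPM of other kept cells.

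Over all measured genes, those furthest above control in the treated libraries were genes of other lineages. Lyz2, a myeloid lysozyme, had 2 UMIs in the control mast cells and 272, 239 and 1109 in the treated ones. The neutrophil gene S100a8 had 631 UMIs with anti-PD-1, of which 92.1% came from 1 cell. Ccl6, Tgfbi and Dab2, genes of macrophages, had none in control and between 25 and 304 UMIs in each treated library. Log2 ratios of these genes in other kept cells were also positive. Bpifa2, a salivary gland gene, had 122 UMIs in the combo mast cells and none in the other libraries. In other kept cells of combo it was at 5958 CPM. The part of carried-over RNA in these genes was not tested.

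RNA of the selection genes outside the members was low and unequal. Cpa3 was found in 0.218% to 0.633% of cells gated as macrophages, and thinned to 500 UMIs in at most 0.0988%. Tpsb2 was found in 0.218%, 0.733%, 1.42% and 2.42% of them, with median depths of 2863, 2137.5, 2292 and 3760 UMIs. The level of Tpsb2 over all other kept cells was 11.3, 9.96, 13.8 and 35.8 CPM, against 17580 to 36513 CPM in the members. Cells with at least 2 UMIs of Mcpt8 numbered 0, 10, 5 and 6. Of these 21 cells, 12 met the limit on the selection genes and were left out for Mcpt8 alone. These 12 held 16511 CPM of Cpa3, 1658 of Kit, 8808 of Mcpt8 and 5680 of Prss34, RNA of both cell types. The other 9 held no Cpa3 or Fcer1a UMI.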

How the data were processed

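Per the labels' protocols, tumours were dissociated and libraries made with the SeekOne MM 3' kit. The deposited matrices hold whole-number UMI counts per gene and barcode, with no normalization. The deposited feature and barcode lists hold other content, namely identifiers and symbols of 32285 genes and 1 barcode per cell. Per the submitters' processing notes, the build was mm10 and Seurat 4.0.3 was used, with no role given; no aligner, counter or cell caller is given in the sources used here. Whether doublets had been removed is not stated.

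UMIs were summed over the mast cells of a library and given as CPM. A log2 ratio had 0.5 counts added to each sum, and a gene was measured with at least 20 UMIs over both libraries. Intervals were exact: binomial (Clopper-Pearson) for shares, Poisson for CPM and conditional for ratios (python 3.11.15, scipy 1.17.1, numpy 2.4.6, pandas 2.3.3). They cover counting error only, and the interval code was tested on simulated data. UMIs of 1 library are not independent of its tumours. With 1 library a group no p-value was computed. Gates for 8 other lineages used fixed marker sums. The members and gene lists were chosen with earlier results of these data known. Named genes were those of the lists with at least 20 UMIs over all members, the 25 with the highest ratio to other cells, and the 10 highest and 10 lowest per comparison; genes counted with fewer UMIs were named where they define a cell or a target. Alternatives to the protease limit, the mitochondrial limit, the Mcpt8 and Cd3 conditions, the denominator, the depth, the way cells were averaged and the minimum of UMIs are given in the closing section.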

Additional observations from a re-analysis of the deposited data

Results flagged for a closer look

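For 3 mast cell genes the ratio had opposite signs when anti-PD-1 was given alone and when it was added to anti-LIF. Ccl3 was lower with anti-PD-1 than in control (log2 ratio -1.43) but higher with combo than with anti-LIF (1.12). Ccl4 did likewise, at -1.22 and 3.49, and Csf2 at -3.28 and 2.35. Each group is 1 library, so the difference between these effects was not tested. The Ccl4 level with anti-LIF rests on 4 UMIs, and the Csf2 level on 1 UMI there and on 1 cell for 77.8% of the control UMIs.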

How the results depend on the processing

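The mast cell share depended most on the Cd3 condition: without it the log2 ratio to control was 0.78 for anti-PD-1 and 1.18 for combo, and -0.02 for anti-LIF; the cells left out are described above. Over all alternatives, some chosen after seeing the data (no Cd3 condition for gene levels, shared barcodes left out, genes at least 8-fold higher in mast cells, the deepest cell left out), the ratios ran from 0.78 to 1.36, -0.02 to 0.82 and 1.18 to 1.97. Single gene ratios were followed for a chosen set of genes only, the 4 selection genes among them, and not for all measured genes. Of 427 alternative values for the 61 ratios of that set past 2-fold, 426 kept their direction and 394 stayed past 2-fold. The exception was Mcpt1 in combo against anti-LIF, 1.67 without the highest cell. The percent of genes at least 2-fold apart moved more. With a minimum of 50 UMIs, 7.07% were higher for anti-PD-1, 4.84% for combo against anti-PD-1 and 6.78% for combo against anti-LIF, where 1.44% were lower. Over mast cell genes, 33.6% were higher with anti-LIF, 11.5% were lower with combo, 11.05% higher and 8.29% lower in combo against anti-PD-1, and 3.85% higher and 8.24% lower against anti-LIF. As the mean over cells, 6.70% were lower with anti-PD-1, 7.34% with combo, 6.28% in combo against anti-PD-1, where 12.6% were higher, and 6.77% against anti-LIF. Without the highest cell of each gene these were 1.96%, 2.58%, 2.56% and 1.82%, and 25.7% were higher with combo. Without the Cd3 condition 5.83% were lower with anti-PD-1, and without cells in another gate 5.26% were higher in combo against anti-LIF. The cause was not tested. No paired analysis was possible because each group is 1 library. The 62 control cells with 153529 UMIs limit every ratio to control.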

Other observations

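Ligands of 2 mast cell receptors were read in the other kept cells. Kitl, which encodes stem cell factor, was at 160 CPM in control cells of the fibroblast gate, 134 CPM with anti-PD-1, 51.3 CPM with anti-LIF and 57.3 CPM with combo. In the endothelial gate it was at 175, 264, 273 and 300 CPM. Il33, the ligand of the receptor that Il1rl1 encodes, was at 129, 168, 290 and 244 CPM in the fibroblast gate. Within these libraries the 2 ligands thus ran in opposite directions in fibroblast-gated cells. No relation to the mast cell levels was tested.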
